A study of Mus musculus with 17 samples.

Results

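The heavy-chain variable region of B1-8hi germinal centre (GC) B cells was examined base by base, over its 4 framework regions (FWR1 to FWR4) and 3 complementarity-determining regions (CDR1 to CDR3). These are 7 of the 14 regions of the heavy and light chains that were sequenced, and 361 of 689 bases. Cells were kept when they held exactly 1 productive Ighv1-72/Ighj2 heavy chain and 1 productive Iglv1/Iglj1 light chain and could be assigned to 1 mouse by hashtag antibodies. Of 22105 such cells, 47 had a heavy chain of another length than the reference and were set aside. The remaining 22058 cells came from 65 mouse samples and carried 50623 mutations, where a mutation is a base that differs from the most frequent heavy-chain sequence of untreated cells at 7 days post-immunization (dpi). That reference was carried unchanged by 948 of 3456 cells at 7 dpi.

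All groups shared the same design. B1-8hi B cells, which carry a prerearranged heavy chain as a knock-in and bind the hapten NP when paired with a lambda light chain, were transferred into wild-type CD45.1 mice primed with ovalbumin (OVA), which were then immunized with NP-OVA in the footpad. Donor cells for division tracking also carried an H2B-mCherry reporter driven by Vav-tTA, those of the sorted populations carried DHB-tdTomato in Rosa26, and mice were of both sexes and aged 5 to 12 weeks. In treated mice, anti-DEC-OVA, an antibody that delivers OVA to cells with the receptor DEC-205, was injected at 7 dpi, so that DEC-205-sufficient B cells presented OVA to T follicular helper cells while Ly75-/- B cells, which lack the receptor, did not. The time course held 9 mice at 0 h (7 dpi), 6 untreated and 9 treated mice at 48 h (9 dpi), and 8 untreated and 7 treated mice at 72 h (10 dpi), with 101 to 570 cells per mouse. It came from a larger and a smaller experiment. The first experiments held 4 mice at day 7, 4 untreated mice at day 10 and 4 treated mice at day 10, with 16 to 337 cells per mouse. There the treated cells had been sorted for low mCherry, that is, for many divisions. In the sorted populations, GC B cells with a CDK2 reporter, taken 72 h after anti-DEC-OVA, were divided into C and N, read here as the cytoplasmic (CDK2hi) and nuclear (CDK2low) reporter, with both populations from each of 7 mice and 163 to 1146 cells per population. Only transferred cells with 1 starting heavy chain were followed, so the values describe this receptor.

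A median of 36 unique molecular identifiers (UMIs) supported each heavy chain, and 8 of the cells had a single UMI. In the 5 pools with gene expression, Bcl6, Fas, S1pr2, Mef2b, Rgs13 and Mki67, which mark GC B cells, summed to 1786 to 3213 CPM (counts scaled to equal library totals), and the T cell markers Cd3d, Cd3e, Cd4 and Cd8a to 0.438 to 1.75. Barcodes shared between libraries numbered 39, and 0 of them carried the same sequences. Where nothing else is stated, values are mutations per 1000 bases, averaged over mice with each mouse weighted equally and given ± SD.

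Somatic hypermutation begins with the deamination of cytosines to uracil in transcribed immunoglobulin genes, which gives mutations at C/G pairs either directly or through repair, whereas mutations at A/T pairs arise when error-prone repair copies the surrounding DNA. The deaminase prefers cytosines in the contexts AAC, AGC, TAC and TGC, which read GTT, GCT, GTA and GCA when the cytosine is on the other strand, and AGCT holds such a site on both strands. At A/T pairs, an A that follows A or T is preferred. The FWRs build the scaffold of the antibody domain, and the CDRs form the loops that contact the antigen. The reference regions are shown because each result below refers to positions in them, with AGCT in capitals and positions counted from 1 at the first base of FWR1. The sequence is that of the deposited contigs, read 5′ to 3′.
FWR1, positions 1 to 75: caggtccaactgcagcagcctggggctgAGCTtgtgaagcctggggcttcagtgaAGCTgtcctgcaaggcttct
CDR1, positions 76 to 96: ggctacaccttcaccAGCTac
FWR2, positions 97 to 153: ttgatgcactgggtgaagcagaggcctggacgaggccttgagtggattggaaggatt
CDR2, positions 154 to 171: gatcctaatagtggtggt
FWR3, positions 172 to 285: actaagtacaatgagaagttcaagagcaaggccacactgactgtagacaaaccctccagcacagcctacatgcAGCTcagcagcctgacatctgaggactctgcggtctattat
CDR3, positions 286 to 330: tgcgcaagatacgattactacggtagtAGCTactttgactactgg
FWR4, positions 331 to 361: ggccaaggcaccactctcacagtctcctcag
CDR3 is given as the contigs annotate it, with the conserved cysteine and tryptophan codons included.

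The first 294 bases matched exon 2 of Ighv1-72, the V gene, on the minus strand in GRCm39, at chr12:115721604-115721897, with 2 differences. Positions 299 to 318 matched the D gene Ighd1-1 at chr12:113445790-113445809, and positions 315 to 361 matched exon 1 of the J gene Ighj2 at chr12:113393088-113393134, each with 0 differences. Positions 315 to 318 matched both genes, and the D match held the whole AGCT at positions 313 to 316. The 2 differences from the genome were G98T, where the letter before the position is the genome's, and T288C. G98T changes tryptophan to leucine at codon 33 (W33L) at the start of FWR2, an exchange known for raising affinity for NP, and T288C is silent. Both sequences around position 98 are given from position 88 to 108, with the differing base in capitals.
Genome, GRCm39: accagctactGgatgcactgg
B1-8hi reference: accagctactTgatgcactgg
Position 98 was mutated in 0.122% ± 0.201 of the cells (n = 39 mice), and 15 of the 29 mutated cells in all groups had gone back to the base of the genome.

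The CDRs were mutated more often per base than the FWRs in every mouse of the time course. The mean frequency was 11.4 ± 3.02 in the CDRs and 4.36 ± 1.13 in the FWRs (n = 39 mice), a difference of 7.06 ± 2.01 that was above 0 in 39 of 39 mice (two-sided sign-flip permutation test, p = 1e-05, the smallest that 100000 resamples give). By region the order was CDR1 at 11.9 ± 4.12, CDR3 at 11.3 ± 2.72, CDR2 at 11.02 ± 4.43, FWR3 at 6.07 ± 1.59, FWR1 at 3.58 ± 1.10, FWR2 at 3.48 ± 1.01 and FWR4 at 1.56 ± 0.652. The 3 CDRs did not keep 1 order among mice. CDR1 was above CDR2 in 27 of 39 mice, and CDR3 was above CDR1 in 17 of 39. FWR2 was above FWR1 in 15 of 39 mice, whereas FWR3 exceeded both FWR1 and FWR2 in all 39. The CDRs, which hold 84 of the 361 bases, took 44.3% ± 2.45 of the mutations.

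The heavy chain differed from the light chain of the same cells mainly outside CDR3. Light-chain FWRs had 1.03 ± 0.340 mutations per 1000 bases, 3.33 ± 0.844 fewer than heavy-chain FWRs, and the heavy chain was higher in 39 of 39 mice (two-sided sign-flip permutation test, p = 1e-05). CDR1 and CDR2 together had 11.5 ± 4.04 in the heavy and 3.88 ± 1.41 in the light chain, again higher in the heavy chain in 39 of 39 mice (two-sided sign-flip permutation test, p = 1e-05). Light-chain CDR3 had 12.3 ± 2.26, beside 11.3 ± 2.72 for heavy-chain CDR3.

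Few positions held much of the load. The 15 most mutated positions held 31.4% of the mutations of the time course and 38 positions held 50%, whereas 107 positions were mutated in under 0.1% of its cells. Over all groups, 3 positions were never mutated. Those 3 were position 286 in the cysteine codon and position 330 in the tryptophan codon that bound CDR3, and position 334 in FWR4. Position 6 in FWR1 was unmutated in the time course only.

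**Figure D1:**
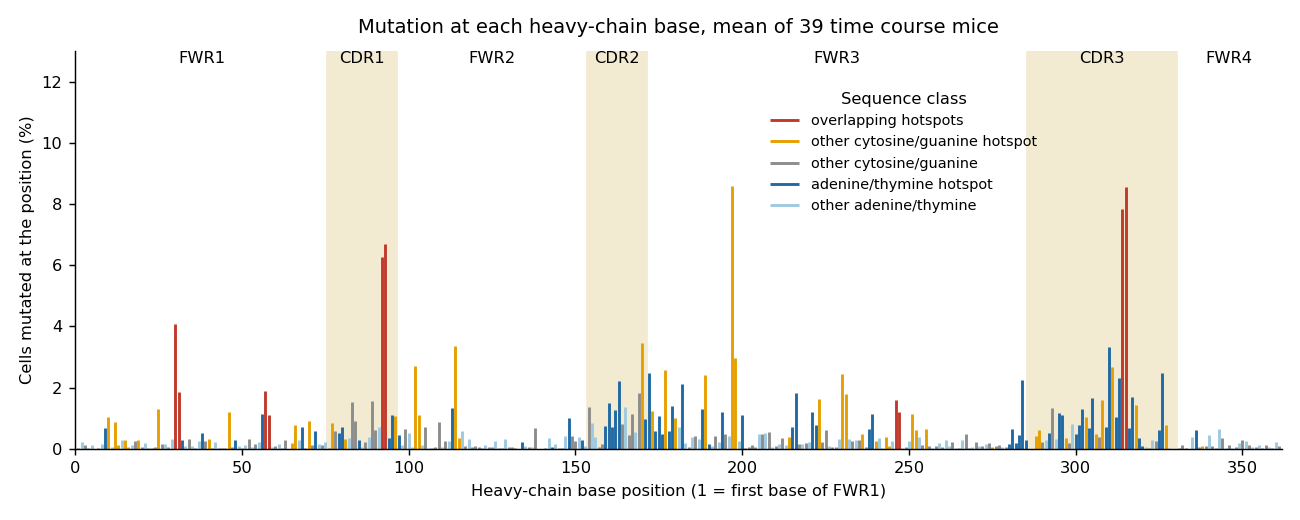
Percent of cells mutated (y) at each heavy-chain base (x), mean of 39 time course mice, with bars coloured by sequence class and CDRs shaded. The tallest bars stand at positions 197 (8.59%), 315 (8.57%), 314 (7.84%), 93 (6.71%) and 92 (6.27%).

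The 3 leading sites were serine codons with the sequence AGC. In FWR3, position 197 in codon 66 was mutated in 8.59% ± 2.98 of cells, with a lowest mouse at 2.31% and a highest at 15.1%. In CDR3, positions 315 and 314 in codon 105 were mutated in 8.57% ± 2.18 and 7.84% ± 2.55. In CDR1, positions 93 and 92 in codon 31 were mutated in 6.71% ± 3.70 and 6.27% ± 2.38. Codon 105 collected 18.7 ± 4.11 mutations per 100 cells, codon 31 collected 13.7 ± 5.73 and codon 66 collected 11.98 ± 3.81. The most mutated codon of CDR2 was glycine 57, with 6.25 ± 2.61, that of FWR2 was lysine 38 with 4.95 ± 2.03, and that of FWR1 was glutamate 10 with 4.43 ± 1.29. At the other end, tryptophan 47 in FWR2 collected 0.0245 ± 0.0738 mutations per 100 cells and tryptophan 110 at the end of CDR3 collected 0.0324 ± 0.0858. Codons are numbered from FWR1 without gaps.

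Of the 15 most mutated positions, 12 were in cytosine hotspot contexts and 5 of those in AGCT. They fell in CDR3 (5), FWR3 (4), CDR1 (2), FWR2 (2), FWR1 (1) and CDR2 (1). The most frequent change was a replacement at positions 197 (G197A, S66N), 314 (G314A, S105N), 93 (C93G, S31R), 92 (G92A, S31N), 170 (G170A, G57D), 310 (A310G, S104G), 102 (G102A, M34I), 311 (G311A, S104N), 172 (A172T, T58S) and 326 (A326G, Y109C). It was silent at positions 315 (C315T), 30 (G30A), 114 (G114A), 198 (C198T) and 177 (G177A).

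Mutation frequency differed with sequence context, and AGCT stood highest. The cytosines and guanines inside AGCT, 10 bases or 2.77% of the sequence, took 19.0% of the mutations, at 41.1 ± 10.8 per 1000 bases (n = 39 mice). Other cytosine hotspots (13.3% of the bases) had 12.2 ± 3.19, and the remaining C/G bases (36.8%) had 2.23 ± 0.623. A/T hotspots (18.3%) had 9.44 ± 2.59 and the remaining A/T bases (28.8%) had 2.38 ± 0.666. Within AGCT the 4 CDR bases had 73.5 ± 19.4 and the 6 FWR bases had 19.5 ± 5.66. The other cytosine hotspots had 11.6 ± 3.27 in the CDRs and 12.5 ± 3.36 in the FWRs, and A/T hotspots had 10.8 ± 3.06 and 8.36 ± 2.37. Outside hotspots, C/G bases had 5.92 ± 1.94 in the CDRs and 1.46 ± 0.420 in the FWRs, and A/T bases had 4.31 ± 1.85 and 2.06 ± 0.551. Cytosine hotspots including AGCT made up 24.4% of CDR3, 23.8% of CDR1, 21.3% of FWR1, 17.5% of FWR3, 7.02% of FWR2, 5.56% of CDR2 and 3.23% of FWR4. CDR2 thus had a frequency near that of CDR1 and CDR3 with a lower share of such hotspots. A/T hotspots made up 18 of 45 bases in CDR3, 6 of 18 in CDR2 and 5 of 21 in CDR1. In the FWRs they made up 23 of 114 bases in FWR3, 6 of 57 in FWR2, 7 of 75 in FWR1 and 1 of 31 in FWR4.

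**Figure D2:**
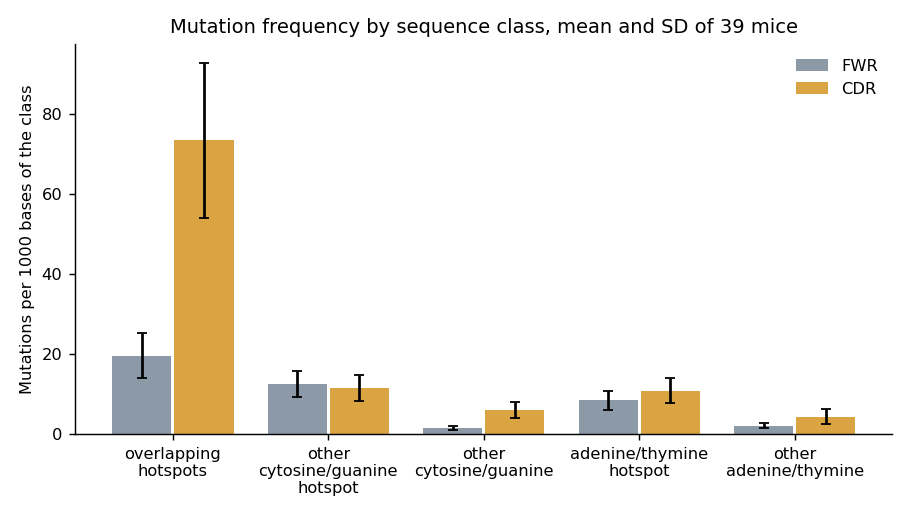
Mutations per 1000 bases (y) of each sequence class (x) in the FWRs and the CDRs, with bars for the mean and error bars for the SD of 39 time course mice; overlapping hotspots are the cytosines and guanines inside AGCT. They reached 73.5 in the CDRs and 19.5 in the FWRs, whereas the other cytosine/guanine hotspots had 11.6 and 12.5.

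C/G bases were mutated more often than A/T bases, at 6.79 ± 1.73 against 5.12 ± 1.38 (A/T minus C/G -1.66 ± 0.632, below 0 in 39 of 39 mice, two-sided sign-flip permutation test, p = 1e-05). The bases differed within each pair. G had 7.76 ± 2.02 and C had 5.76 ± 1.58, while A had 7.14 ± 2.01 and T had 2.85 ± 0.780, on the strand that reads as the coding sequence. Transitions made up 60.8% ± 3.33 of mutations at C/G and 45.9% ± 4.54 of mutations at A/T. The most frequent changes were C to T, 63.8% ± 4.51 of the mutations of C, and G to A, 58.7% ± 4.81 of those of G.

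Replacements made up 72.1% ± 2.84 of the mutations in the FWRs and 78.3% ± 3.37 of those in the CDRs (n = 39 mice). CDR2 had the highest share, 83.6% ± 7.24, and FWR1 the lowest, 62.4% ± 5.40. If all possible changes of a region had occurred in proportion to the observed changes of each base, the share of replacements would have been 75.9% in CDR2, 72.4% in CDR1, 77.9% in CDR3, 72.5% in FWR3, 73.4% in FWR2, 68.1% in FWR1 and 67.4% in FWR4. Counted over all cells, the observed shares were 83.8%, 78.6%, 76.9%, 77.2%, 68.1%, 62.3% and 70.1%. CDR1, CDR2, FWR3 and FWR4 thus lay above this share, and FWR1, FWR2 and CDR3 below it. The share counts every position of a region as equally mutable, so single hotspots weigh on the distance from it. C315T made up 1355 of the 2864 silent changes in CDR3, and C93G 852 of the 4313 replacements in CDR1. Selection was not tested. Changes read as a stop codon made up 0.162% of all mutations, where 5.10% of the possible changes give one, and 0 cells carried a stop codon. Only productive chains were kept, which removes stop codons by definition.

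Without treatment, mutation frequencies rose between 0 h and 72 h, past the threshold in every region except FWR4. The largest differences were in CDR1 and CDR2. CDR1 went from 8.47 ± 1.78 (lowest mouse 5.67, median 8.10, highest 11.5, n = 9) at 0 h to 17.98 ± 1.66 (15.5, 18.2 and 20.2, n = 8) at 72 h. CDR2 went from 7.29 ± 1.35 (4.92, 7.095 and 10.1) to 17.7 ± 3.40 (14.2, 16.9 and 24.1), and CDR3 from 10.2 ± 1.73 (8.07, 10.1 and 14.1) to 13.9 ± 1.64 (12.2, 13.6 and 16.4). For each experiment, the average of its own 0 h mice was subtracted before groups were compared, and mice exchanged labels only within an experiment. Of the 7 heavy-chain regions, 6 were higher at 72 h (adjusted p between 0.000253 and 0.0109, two-sided exact permutation test, Benjamini-Hochberg over 14 regions), beside 85.7% of the 14 regions of both chains. The FWRs gained 1.94 (p = 0.000108, exact permutation test) and the CDRs 6.63 (p = 0.000108, exact permutation test). FWR4 differed by 0.370 (adjusted p = 0.258, exact permutation test). Within the larger and the smaller experiment the CDRs gained 6.27 and 7.23, and the FWRs 1.86 and 2.09.

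With this gain, the CDR share of mutations went from 43.1% ± 1.87 to 46.0% ± 1.25 (difference 2.96 percentage points, p = 0.00357, exact permutation test). Within the FWRs, the replacement share fell from 73.6% ± 3.36 to 70.1% ± 0.644 (p = 0.0108, exact permutation test), while the replacement share of the CDRs was 77.2% ± 2.23 and 77.9% ± 4.37 (p = 0.659, exact permutation test). The transition share was 56.4% ± 3.30 and 54.2% ± 1.23 (p = 0.107, exact permutation test). With CDRs bounded as in the scheme of Kabat, in which CDR2 runs further into FWR3, the CDR share differed by -0.461 percentage points (p = 0.715, exact permutation test) and the FWR replacement share by -2.82 (p = 0.1002, exact permutation test).

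**Figure D3:**
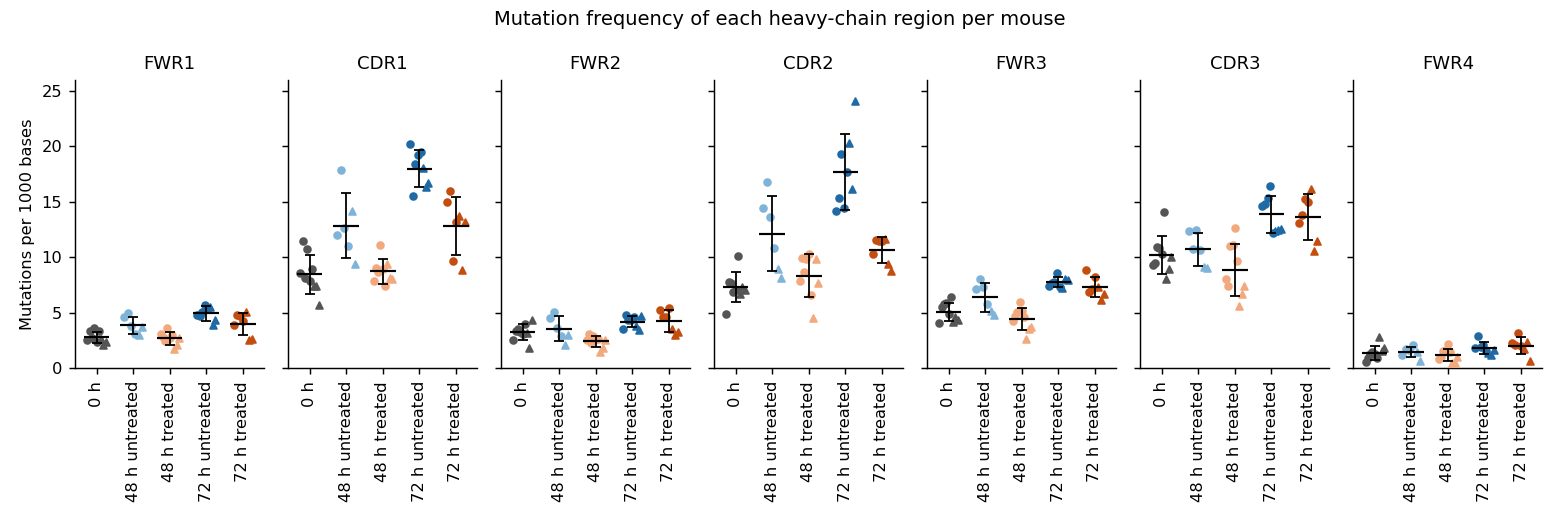
Mutations per 1000 bases (y) of each heavy-chain region in each mouse of the time course, by group (x), with circles for the larger and triangles for the smaller experiment and bars for mean and SD. In CDR1 and CDR2, the 72 h untreated mice (15.5 to 20.2 and 14.2 to 24.1) stand above the 0 h mice, and treated mice at 72 h reach 16.01 and 11.6.

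At 48 h, treated mice had lower mean frequencies than untreated mice in all regions, and the difference passed the threshold in all but FWR4. The FWRs had 3.18 ± 0.683 (1.89, 3.40 and 4.23, n = 9) in treated and 4.57 ± 0.949 (3.54, 4.52 and 5.89, n = 6) in untreated mice, a difference of -1.40 (p = 0.000952, exact permutation test). The CDRs had 8.70 ± 1.61 (6.31, 8.36 and 11.2) and 11.6 ± 1.84 (8.92, 11.8 and 13.8), a difference of -2.86 (p = 0.00238, exact permutation test). Of the 7 heavy-chain regions, 6 were lower in treated mice (adjusted p between 0.00667 and 0.0394, exact permutation test), beside 78.6% of the 14 regions. The largest differences were in CDR1 (-4.14, adjusted p = 0.00667, exact permutation test) and CDR2 (-3.76, adjusted p = 0.0108, exact permutation test). FWR4 had 1.19 ± 0.570 and 1.46 ± 0.487 (adjusted p = 0.253, exact permutation test). Within the larger and the smaller experiment the differences were -1.49 and -1.20 in the FWRs and -3.08 and -2.42 in the CDRs.

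All kinds of mutation were lower together at 48 h. C/G bases had 5.15 ± 0.895 in treated and 6.87 ± 1.32 in untreated mice, and A/T bases had 3.69 ± 0.909 and 5.45 ± 0.958, each with an adjusted p of 0.00238 in an exact permutation test over 20 measures. AGCT bases had 31.2 ± 5.73 and 40.5 ± 4.23 (adjusted p = 0.00238, exact permutation test). Replacements and silent changes in the FWRs and CDRs, transitions and transversions were all lower as well. The composition moved less: the CDR share was 45.6% ± 3.01 and 43.6% ± 2.01 (p = 0.139, exact permutation test), the A/T share 38.6% ± 3.35 and 41.4% ± 0.887 (p = 0.0729, exact permutation test) and the transition share 53.7% ± 2.60 and 53.5% ± 2.04 (adjusted p = 0.870, exact permutation test).

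Against 0 h, 0 of the 7 heavy-chain regions passed the threshold in 48 h treated mice (exact permutation test, 7.14% of the 14 regions; 2 heavy-chain regions, FWR2 and FWR3, both lower, had an unadjusted p under 0.05). In 48 h untreated mice 4 did, namely FWR1, CDR1, CDR2 and FWR3, all higher (42.9% of the 14 regions). From 48 h to 72 h, 6 of 7 heavy-chain regions rose in treated mice (85.7% of the 14 regions) and 5 of 7 in untreated mice (57.1%). In treated mice the FWRs gained 2.06 and the CDRs 4.23 over this day (p = 0.000238 each, exact permutation test), and in untreated mice they gained 1.04 (p = 0.00635, exact permutation test) and 4.23 (p = 0.000794, exact permutation test). These comparisons share mice with one another and with the comparison at 48 h. In treated mice CDR3 rose by 4.94 and CDR2 by 2.36 (adjusted p = 0.00200 and 0.0127, exact permutation test), and in untreated mice they rose by 3.20 and 5.61 (adjusted p = 0.00833 and 0.0302, exact permutation test). With each distinct heavy-chain sequence of a mouse counted once, CDR2 in treated mice differed by -0.924 over this day (p = 0.429, exact permutation test). That setting also merges all unmutated cells of a mouse. Such cells made up 36.7% ± 8.44 at 48 h treated and 16.4% ± 3.10 at 72 h treated. It therefore changes the mutation load itself and is not a correction for clones alone.

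At 72 h, CDR1 and CDR2 were lower in treated than in untreated mice. CDR1 had 12.8 ± 2.63 (8.83, 13.2 and 16.01, n = 7) in treated and 17.98 ± 1.66 (15.5, 18.2 and 20.2, n = 8) in untreated mice, a difference of -5.05 (adjusted p = 0.00833, exact permutation test). CDR2 had 10.7 ± 1.17 (8.80, 11.5 and 11.6) and 17.7 ± 3.40 (14.2, 16.9 and 24.1), a difference of -7.01 (adjusted p = 0.00833, exact permutation test), and here no treated mouse reached the lowest untreated mouse. CDR3 had 13.6 ± 2.06 (10.6, 13.8 and 16.2) and 13.9 ± 1.64 (12.2, 13.6 and 16.4), a difference of -0.161 (adjusted p = 0.873, exact permutation test). These 2 CDRs were the only heavy-chain regions past the threshold (2 of 7, beside 21.4% of the 14 regions). FWR1 differed by -0.920 (adjusted p = 0.131, exact permutation test), and FWR2, FWR3 and FWR4 by 0.0505, -0.371 and 0.166.

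As a description, with the grouping chosen after the regions had been seen, CDR1 and CDR2 together minus CDR3 gave -1.79 ± 1.86 in treated and 3.99 ± 2.68 in untreated mice at 72 h. At 48 h this value was -0.289 ± 2.03 in treated and 1.77 ± 2.56 in untreated mice, and at 0 h it was -2.30 ± 1.49. The FWRs as a whole had 5.19 ± 0.752 and 5.59 ± 0.308 (difference -0.373, p = 0.146, exact permutation test) and the CDRs 12.8 ± 1.63 and 15.7 ± 0.894 (difference -2.85, p = 0.00159, exact permutation test). The CDR share of mutations was 42.8% ± 2.14 in treated and 46.0% ± 1.25 in untreated mice (difference -3.16, p = 0.00317, exact permutation test). With the Kabat boundaries that difference was -0.0331 (p = 0.964, exact permutation test), and the FWRs then differed by -0.530 (p = 0.0143, exact permutation test).

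Silent changes in the FWRs were also lower in treated mice at 72 h, at 1.32 ± 0.217 against 1.67 ± 0.108 (adjusted p = 0.00529, exact permutation test over 20 measures), whereas FWR replacements had 3.85 ± 0.597 and 3.91 ± 0.208 (adjusted p = 0.908, exact permutation test). The replacement share of the FWRs was 74.4% ± 2.88 in treated and 70.1% ± 0.644 in untreated mice (adjusted p = 0.00529, exact permutation test). CDR replacements had 9.997 ± 1.65 and 12.2 ± 0.837 (adjusted p = 0.00893, exact permutation test), and CDR silent changes 2.76 ± 0.339 and 3.47 ± 0.770 (adjusted p = 0.0928, exact permutation test). With Kabat boundaries, 1 of the results for FWR silent changes, FWR replacement share and CDR replacements no longer passed the threshold. These results thus depend in part on where the regions are bounded. C/G bases had 7.83 ± 1.15 and 8.98 ± 0.606 (adjusted p = 0.00529, exact permutation test) and A/T bases 5.97 ± 0.718 and 6.78 ± 0.446 (adjusted p = 0.0536, exact permutation test). The A/T share was 40.6% ± 2.03 and 40.2% ± 2.16 (p = 0.862, exact permutation test).

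Single positions were tested with limma on arcsine-transformed shares of mutated cells, over 331 positions of both chains that were mutated in at least 20 cells, 227 of them in the heavy chain. The fit gave every position of a contrast the same spread, pooled over all positions, so the spread between mice at a position did not enter its p, and p-values from each position's own spread are given for comparison. Shares of called positions over all 331 come from the pooled fit. Calls with own spread are given for the heavy chain only. Between 72 h and 0 h in untreated mice, 45 heavy-chain positions were called, 42 higher and 3 lower at 72 h, beside 19.0% of all 331 positions, and 42 were called with each position's own spread. The median difference was 0.243 percentage points over the heavy-chain positions and 0.200 over both chains. CDR2 had 8 of its 17 tested positions among them, CDR1 6 of 19, FWR3 17 of 80, FWR1 7 of 39, CDR3 4 of 37, FWR4 1 of 9 and FWR2 2 of 26. Of the 45 positions, 36 had a replacement as their most frequent change, 15 were in cytosine hotspots and 20 in A/T hotspots. The shares of these classes among the 227 tested positions are not given, so these counts show no enrichment. The groups did not overlap at 5 of the 45 positions, beside 2.11% of the 331 positions. The 3 positions that were lower at 72 h lay in FWR3, 2 of them in lysine codon 59 (positions 175 and 176) and 1 in tyrosine codon 80 (position 238). Position 175 was mutated in 1.63% ± 0.433 of cells at 0 h and 0.547% at 72 h, position 176 in 0.634% ± 0.266 and 0.204%, and position 238 in 1.03% ± 0.907 and 0.252%.

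The 10 largest differences lay in CDR1, CDR2, CDR3 and FWR3. Position 93 in CDR1 stood first, with 3.01% ± 0.868 (2.08%, 3.15% and 4.82%) of cells at 0 h and 12.2% ± 2.80 (8.09%, 12.04% and 16.2%) at 72 h, without overlap (limma). Position 92 beside it rose from 5.41% ± 1.55 to 8.96% ± 1.49 and position 197 in FWR3 from 6.97% ± 2.08 to 10.8%. In CDR2, positions 154 (0.311% to 3.61%), 165 (0.214% to 3.10%), 163 (1.46% to 3.92%), 170 (2.17% to 4.69%) and 169 (0.974% to 2.93%) rose, all with a replacement as the leading change (limma). In CDR3, positions 315 (7.83% to 11.01%) and 310 (1.95% to 4.99%) rose.

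Between treated and untreated mice, few single positions were called. At 48 h, the limma difference, treated minus untreated, was below 0 at 182 of the 227 heavy-chain positions, and 39 had an unadjusted p under 0.05 in limma. The same counts are not given for all 331 positions, so they do not set the heavy chain apart. At that time limma called 4 heavy-chain positions, all lower in treated mice, beside 2.11% of all 331 positions, and the median difference was -0.168 percentage points over the heavy chain and -0.149 over both chains. Position 197 in FWR3 had 5.82% ± 1.81 in treated and 9.35% ± 2.82 in untreated mice (limma, adjusted p = 0.00596), position 93 in CDR1 had 4.75% ± 0.995 and 8.12% ± 2.25 (limma, adjusted p = 0.0149), position 154 in CDR2 had 0.723% ± 0.623 and 2.13% ± 1.15 (limma, adjusted p = 0.00596), and position 306 in CDR3, mostly the silent C306T, had 0.0908% ± 0.182 and 0.583% ± 0.103 (limma, adjusted p = 0.0271). The groups did not overlap at position 306, beside 0.302% of the 331 positions. With each distinct heavy-chain sequence of a mouse counted once, none of these 4 positions passed the threshold. The differences at positions 93 and 154 were then -4.24 and -1.55 percentage points (limma, adjusted p = 0.0780 each) and that at position 197 was -2.82 (limma, adjusted p = 0.385). Counting in this way merges the unmutated cells of a mouse, 36.7% ± 8.44 of cells in treated and 24.0% ± 7.72 in untreated mice. It thus removes part of the difference in load and does not single out clonal copies. With each position's own spread, 3 heavy-chain positions were called at 48 h, positions 93, 164 and 197, all lower in treated mice. No share over both chains is given for that fit. Positions 197 and 93 thus passed (limma, adjusted p = 0.0261 each), whereas positions 154 and 306 did not (limma, adjusted p = 0.149 and 0.0700).

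At 72 h, limma called 8 heavy-chain positions, 7 lower and 1 higher in treated mice, beside 3.63% of all 331 positions, with a median difference of -0.0918 percentage points over the heavy chain and -0.0561 over both chains. The 4 with the largest changes were positions 93, 314, 154 and 165. Position 93 in CDR1 had 6.45% ± 1.33 (4.95%, 6.17% and 8.85%) in treated and 12.2% ± 2.80 (8.09%, 12.04% and 16.2%) in untreated mice. Position 154 in CDR2 had 0.344% ± 0.340 (0%, 0.442% and 0.806%) and 3.61% ± 2.44 (0.377%, 3.72% and 6.46%), so that the untreated mice varied widely and the groups overlapped. Position 165 in CDR2 had 0.693% ± 0.832 (0%, 0.496% and 2.42%) and 3.10% ± 1.47 (1.18%, 3.07% and 4.91%). With each position's own spread, 4 heavy-chain positions were called at 72 h, position 163 in CDR2 and positions 93, 154 and 165, all lower in treated mice (for the last 3, limma, adjusted p = 0.000897, 0.000897 and 0.00547). No share over both chains is given for that fit. In the pooled fit positions 93, 154 and 165 were called within the larger and within the smaller experiment alone and with each distinct sequence counted once.

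Position 314 in the serine codon of CDR3 was the 1 position that was higher in treated mice, at 10.7% ± 2.47 (5.65%, 11.5% and 13.3%) against 7.27% ± 1.83 (4.14%, 7.26% and 10.2%, limma, adjusted p = 0.0409). Its adjusted p in limma was 0.0532 with its own spread, 0.0536 with at least 5 UMIs per heavy chain and 0.0557 with cells assigned to their highest hashtags, and within the larger and the smaller experiment it was 0.347 and 0.353. The other calls at 72 h were positions 12 in FWR1, 91 in CDR1, 100 in FWR2 and 319 in CDR3, with treated means between 0.212% and 0.635% and untreated means between 0.796% and 1.62% (limma, adjusted p between 0.0325 and 0.0456, or between 0.0606 and 0.117 with each position's own spread). The groups overlapped at all 8 positions, beside 0.302% of the 331 positions without overlap.

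The changes at codons 31, 52 and 55 were followed further as amino acids, a choice made after their values had been seen and therefore described without a test. S31R, an arginine in CDR1, was carried by 1.57% ± 0.894 of cells at 0 h, 10.4% ± 2.39 (6.67%, 10.8% and 13.6%) at 72 h untreated and 4.32% ± 1.27 (3.13%, 3.96% and 6.64%) at 72 h treated. D52N, an asparagine at the first codon of CDR2, was carried by 0.183% ± 0.265, 3.28% ± 2.19 and 0.344% ± 0.340. S55R, an arginine in CDR2, was carried by 0.442% ± 0.394, 4.80% ± 1.43 and 1.07% ± 0.771. Untreated mice at 72 h stood above treated mice on average for all 3, and for S31R (6.64% against 6.67%) and S55R (2.42% against 3.02%) the highest treated mouse stayed below the lowest untreated mouse. At 72 h untreated the 278 cells with S31R held 252 distinct heavy-chain sequences within mice, the 97 with D52N held 86 and the 132 with S55R held 126. Distinct sequences can descend from 1 mutated ancestor, and whether the cells with a change share one was not tested. The share of cells with D52N ranged from 0.377% to 6.24% between untreated mice at 72 h.

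Cells with any of the 3 changes made up 2.20% ± 0.843 at 0 h, 10.5% ± 2.64 at 48 h untreated, 5.79% ± 1.52 at 48 h treated, 17.7% ± 3.80 (10.9%, 17.6% and 22.0%) at 72 h untreated and 5.62% ± 1.01 (4.38%, 5.63% and 7.08%) at 72 h treated. The 3 changes were chosen with these values known, so the separation of the 2 groups at 72 h is a description only. Of the 484 cells with such a change at 72 h untreated, 23 carried 2 of them and 0 carried all 3.

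Other changes at these and like codons varied in their order. At codon 31, the silent change of position 93 to T was carried by 1.47% ± 0.548 of cells at 0 h, 2.24% ± 0.948 (0.891%, 2.25% and 3.82%) at 72 h untreated and 2.13% ± 0.550 (0.9901%, 2.21% and 2.68%) at 72 h treated, while the changes of the same base to A or G, which give S31R, were carried by 1.55% ± 0.845, 10.005% ± 2.42 and 4.32% ± 1.27. S31N was carried by 3.46% ± 1.06, 4.26% ± 0.699 and 4.69% ± 1.58. Codon 105 in CDR3 is the other AGC codon followed by T, and there the changes of position 315 to A or G, which give S105R, were carried by 3.08% ± 1.10 at 0 h, 2.89% ± 0.968 at 72 h untreated and 3.23% ± 1.76 at 72 h treated. The silent change of that base to T was carried by 4.74% ± 1.002, 8.13% ± 1.34 and 6.45% ± 1.14. At the same codons as above, S31T was carried by 1.44% ± 1.02, 3.56% ± 1.15 and 2.88% ± 1.59, D52A by 0.248% ± 0.562, 1.25% ± 0.395 and 0.486% ± 0.685, and S55G by 0.659% ± 0.344, 1.24% ± 0.800 and 0.742% ± 0.566, with 72 h untreated mice highest on average. The means of D52G and S55T went the other way at 72 h, at 0.259% ± 0.297 and 0.608% ± 0.432 in untreated and 0.415% ± 0.574 and 0.672% ± 0.482 in treated mice. At codon 57, the last of CDR2, the means at 72 h were likewise lower in untreated than in treated mice, at 1.28% ± 0.613 and 1.76% ± 0.741 for G57D, 0.746% ± 0.604 and 1.24% ± 0.953 for G57V, and 0.581% ± 0.398 and 0.685% ± 0.908 for G57S. In CDR3, S104R was carried by 0.611% ± 0.289, 2.05% ± 0.894 and 1.26% ± 1.16. In FWR3, S66N was carried by 4.04% ± 1.46, 5.68% ± 1.17 and 5.90% ± 2.76.

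**Figure D4:**
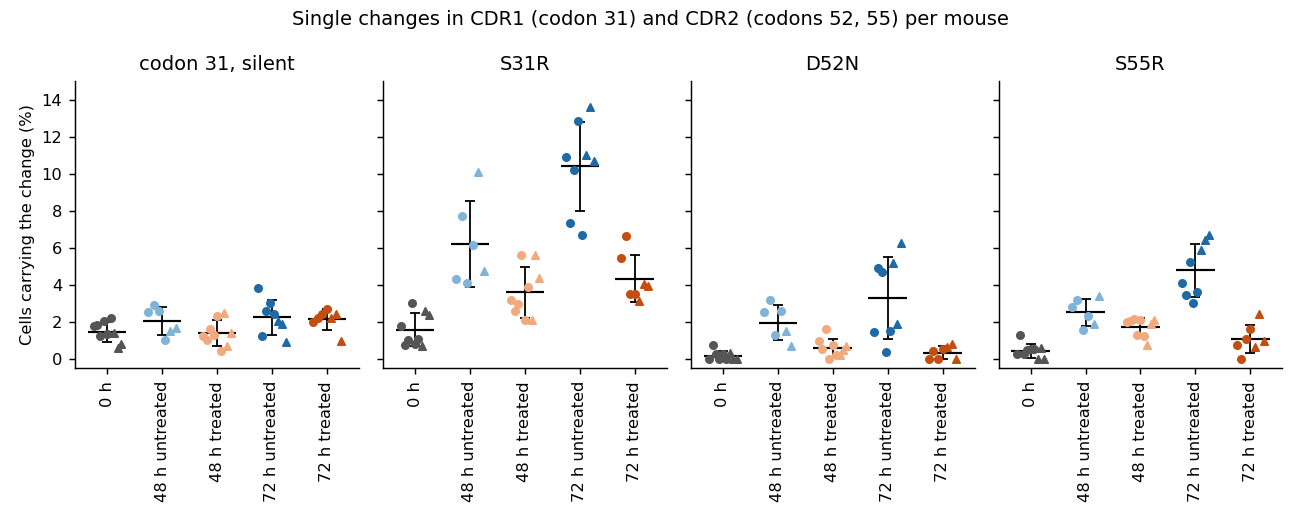
Percent of cells (y) with the silent change at position 93 in codon 31, or with S31R, D52N or S55R, in each mouse of the time course, by group (x), with circles for the larger and triangles for the smaller experiment and bars for mean and SD. The silent change stays at means of 1.39% to 2.24% in the 5 groups, whereas S31R reaches 10.4% at 72 h untreated and 4.32% at 72 h treated.

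The first experiments had few mice per group, 3 from the larger and 1 from the smaller experiment, and labels were exchanged over both. The CDRs had 14.3 ± 1.71 at day 7, 23.5 ± 2.77 at day 10 untreated and 19.3 ± 4.20 at day 10 treated, and the FWRs had 4.08 ± 0.660, 7.27 ± 0.868 and 6.07 ± 1.74 (n = 4 mice each). Untreated mice at day 10 had 20.3, 22.2, 25.2 and 26.4 in the CDRs, and treated mice 13.4, 19.3, 21.6 and 22.9, so that the groups overlapped. The difference was -4.25 in the CDRs (p = 0.143, exact permutation test) and -1.20 in the FWRs (p = 0.314, exact permutation test). With labels exchanged within experiments the p-values were 0.25 and 0.35 (exact permutation test). Without the treated mouse at 13.4, which had 16 cells, the differences were -2.29 and -0.377 (p = 0.257 and 0.543, exact permutation test). None of the 14 regions passed the threshold, 0% of them, and 0 of the 7 heavy-chain regions had an unadjusted p under 0.05 in the exact permutation test. CDR1 had 21.3 ± 5.24 at day 10 untreated and 12.8 ± 6.37 at day 10 treated (adjusted p = 0.600, exact permutation test), CDR2 24.3 ± 12.4 and 11.6 ± 7.96 (adjusted p = 0.800, exact permutation test) and CDR3 24.3 ± 3.76 and 25.4 ± 3.76 (adjusted p = 0.886, exact permutation test). S31R was carried by 9.82% ± 6.81 and 2.86% ± 2.48 of cells, which rests on 30 and 6 cells.

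From day 7 to day 10 without treatment, CDR1 went from 7.34 ± 2.56 to 21.3 ± 5.24 and CDR2 from 8.02 ± 1.98 to 24.3 ± 12.4, whereas CDR3 went from 19.97 ± 4.23 to 24.3 ± 3.76. Of the 7 heavy-chain regions 0 passed the adjusted threshold (adjusted p = 0.0667 for the 5 lowest, exact permutation test), beside 0% of the 14 regions. The FWRs and CDRs as wholes rose by 3.19 and 9.29 (p = 0.0286 each, exact permutation test, or 0.05 each with labels exchanged within experiments). No smaller p than 0.0286 is possible with 4 mice per group, so the adjusted threshold could hardly be passed and the count of 0 decides little. CDR3 at day 7 was thus higher here than at 0 h of the time course (10.2 ± 1.73), and within the first experiments it was 22.2, 21.5 and 22.5 in the 3 day 7 mice of the larger and 13.6 in the 1 day 7 mouse of the smaller experiment.

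In the sorted populations, N cells carried more mutations than C cells of the same mice. Each population was sequenced as a library of its own, so population and library cannot be told apart by pairing. The median heavy-chain UMIs were 23 in N and 32 in C. The paper compared cells with a dark-zone expression profile, whereas here cells were kept whatever their zone. The FWRs had 6.004 ± 0.572 in N and 4.75 ± 0.513 in C, with N higher in 7 of 7 mice (difference 1.25 ± 0.488, p = 0.0156, exact sign-flip permutation test over pairs, the smallest that 7 pairs allow). The CDRs had 14.9 ± 1.22 and 11.6 ± 1.66, with N higher in 7 of 7 mice (difference 3.34 ± 1.81, p = 0.0156, exact sign-flip permutation test). Of the 7 heavy-chain regions 5 were called (adjusted p = 0.0243, exact sign-flip permutation test), beside 71.4% of the 14 regions. CDR3 differed by 4.51 ± 2.90, CDR1 by 2.94 ± 0.872, FWR3 by 1.69 ± 0.751, FWR2 by 1.35 ± 0.911 and FWR1 by 0.981 ± 0.925, and in each of them N was higher in 7 of 7 mice. CDR2 had 11.3 ± 2.12 in N and 10.4 ± 2.90 in C, higher in 5 of 7 mice (adjusted p = 0.292, exact sign-flip permutation test), and FWR4 had 1.80 ± 0.613 and 1.69 ± 0.511 (adjusted p = 0.688, exact sign-flip permutation test).

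The kinds of mutation in N and C differed by less than the spread between mice. The CDR share was 43.0% ± 2.69 in N and 42.4% ± 1.42 in C, the A/T share 41.6% ± 1.51 and 41.2% ± 2.42, and the transition share 57.04% ± 1.48 and 55.6% ± 2.17 (p = 0.422, 0.734 and 0.234, exact sign-flip permutation test). C/G bases differed by 1.89 ± 0.651, higher in N in 7 of 7 mice, and A/T bases by 1.56 ± 0.883, higher in 6 of 7 (p = 0.0156 and 0.0312, exact sign-flip permutation test). Changes of position 93 that give S31R were carried by 3.61% ± 2.06 of N and 3.67% ± 2.80 of C cells, and the silent change of that base by 2.48% ± 0.885 and 1.45% ± 0.461, a contrast chosen after its values had been seen and not tested.

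**Figure D5:**
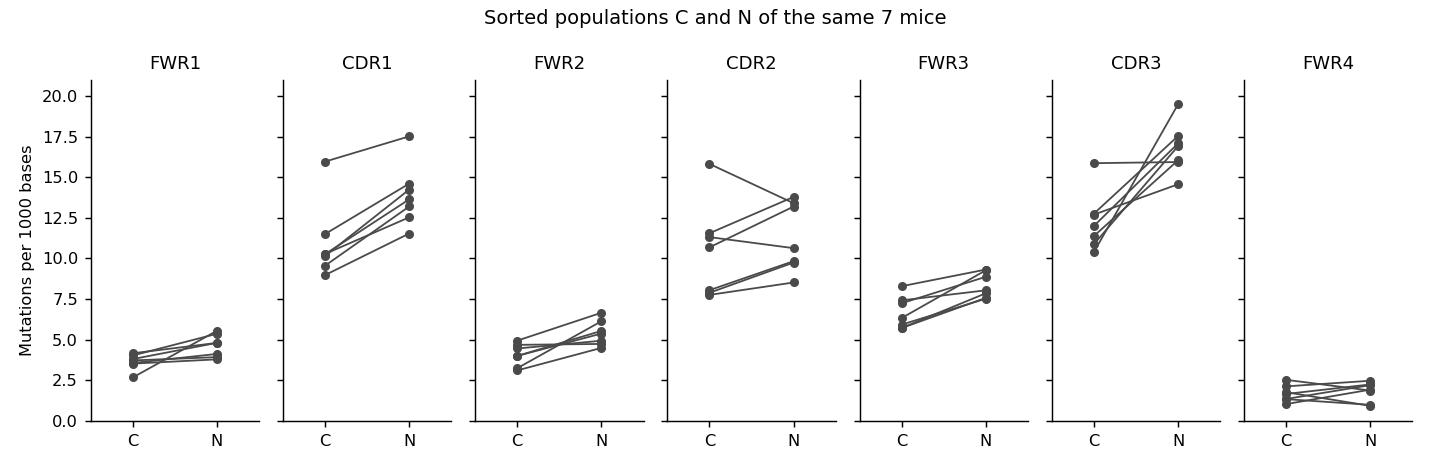
Mutations per 1000 bases (y) of each heavy-chain region in the C and N populations (x) of the same 7 mice, with 1 line per mouse. Lines rise in all 7 mice in FWR1, CDR1, FWR2, FWR3 and CDR3, in 5 of 7 in CDR2 and in 4 of 7 in FWR4.

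The profile over the 361 positions was alike between data sets, as a description over positions that share the same reference sequence. Pearson's r of the mean percent mutated was 0.981 between the larger and the smaller experiment of the time course, 0.979 between the time course and the sorted populations and 0.921 between the time course and the first experiments. It was 0.899 between 0 h and 72 h untreated and 0.927 between treated and untreated mice at 72 h.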

How the data were processed

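Droplet single-cell 5′ libraries from 6 pools of GC B cells were used. The authors assembled V(D)J contigs with Cell Ranger and deposited, per contig, the bases of each FWR and CDR and UMI counts, and gene and hashtag counts per cell against mm39 (GRCm39); Cell Ranger 6.0.1 is named in the labels, and 7.1.0 or 8.0.1 in the file headers. Here, cells were assigned to mice from the hashtag counts with cutoffs of HTODemux (Seurat 5.3.0, positive quantile 0.99). Only cells positive for exactly the hashtags listed for 1 mouse were kept. This left 471 of 3916 cells with the chain pair in the smaller first experiment and 583 of 803 in the larger. In the larger and smaller experiment of the time course it left 9222 of 10943 and 4396 of 5843. In the C and N pools the hashtags of 2 mice had almost no reads, which left 7 pairs. Mutations were counted per mouse (at least 10 cells each) and compared over mice by permutation tests (Python 3.11.15, scipy 1.17.1). Each position was tested with limma 3.58.1, on arcsine-square-root shares weighted by cells, with a term for the experiment and Benjamini-Hochberg adjustment over both chains. Scripts were tested on simulated data. Named are all 7 regions, the 15 most mutated positions, up to 10 called positions per contrast and the differences from the genome. Members and lists were chosen with earlier results of these data known. C and N were paired by mouse, since both sorts came from the same animals. Alternatives changed the hashtag assignment, the counting of identical heavy-chain sequences, UMI and cell minimums, baseline, experiments and model terms. Counting each distinct sequence once also merged the unmutated cells of a mouse. Kabat boundaries, leaving out cells with a further productive chain and each position's own spread (unmoderated limma) were added after seeing the data.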

Additional observations from a re-analysis of the deposited data

Results flagged for a closer look

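Of 8 measures, 3 had a treatment effect that differed between 72 h and 48 h in a permutation test of the interaction over 30 mice. The effect on the FWR frequency was 1.05 mutations per 1000 bases higher at 72 h than at 48 h (permutation test, p = 0.00477, adjusted p = 0.0189), that on the CDR share of mutations 5.33 percentage points lower (-5.33, permutation test, p = 0.00113, adjusted p = 0.00904) and that on the FWR replacement share 3.98 percentage points higher (permutation test, p = 0.0071, adjusted p = 0.0189). For CDR1, CDR2 and CDR3 the difference between the times was -0.984, -3.24 and 1.78 (permutation test, adjusted p = 0.574, 0.154 and 0.156). All these interactions use the region boundaries of the contigs, and none is given for Kabat boundaries. With Kabat boundaries, the treatment effect at 72 h no longer passed the threshold for the CDR share and did pass it for the FWR frequency (above).

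Single mice stood apart in 2 of 70 groups and measures checked, where chance alone gives about 1 in 20. In the C population, mouse M4 had the lowest A/T share, 36.3%, against 40.7% for the next and 43.6% for the highest of 7 mice. In the N population, mouse M10 had the highest transition share, 60.1%, against 57.6% for the next and 55.8% for the lowest.

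Heavy chains of another length than the reference, outside the comparisons above, made up 0.213% of cells (95% exact interval 0.156% to 0.283%, counting error only). Of these 47 cells, 37 differed in FWR3 and 10 in CDR3, and 27 were shorter and 20 longer. Only productive chains were kept, so a change of length that shifts the reading frame could not be seen.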

How the results depend on the processing

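Of 289 alternative values for the results that answer a comparison, 259 kept direction and side of the threshold. In the smaller experiment alone, where few mice bound the permutation p from below, the differences in the FWRs and CDRs were -1.20 and -2.42 (treated minus untreated, 48 h), 2.12 and 4.71 (72 h minus 48 h, treated) and 2.09 and 7.23 (72 h minus 0 h, untreated), and that in the CDRs at 72 h was -3.35, none past the threshold. There the CDR share at 72 h differed by -1.93, the A/T share by -0.155 and the FWR replacement share from 0 h to 72 h by -2.91. With Kabat boundaries the CDR share at 72 h differed by -0.0331 and the FWR frequency by -0.530, and from 0 h to 72 h the FWR replacement share by -2.82, the CDR replacement share by -0.484 and the CDR share by -0.461. The CDR replacement share differed by -0.153 in the larger experiment alone, and the transition share by -2.68 without the 3 most mutated positions (p = 0.0379, exact permutation test). The cause of these shifts was not tested.

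Calls at heavy-chain positions numbered 57 over the 3 contrasts, against 25 with distinct sequences, 30 in the larger and 11 in the smaller experiment. These are calls and not distinct positions, since a position called in several contrasts counts in each. From 0 h to 72 h they were 45 against 18, 22 and 7. At 48 h they were 4 against 0 with distinct sequences and 0 in the smaller experiment. At 72 h they were 8 against 4 in either experiment, 4 with each position's own spread and 5 each with at least 5 UMIs, no filter on mutated cells or no term for the experiment. Over the 331 positions of both chains, the main fit called 19.0% from 0 h to 72 h, 2.11% at 48 h and 3.63% at 72 h. No such share is given for the alternatives. Fewer cells or mice enter several of these fits, and some named positions, such as position 306 at 48 h, were not tested in the smaller experiment alone.

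Among single regions and measures, the direction turned 10 times: besides the CDR share from 0 h to 72 h with Kabat boundaries (above), for FWR3 (0.018, larger experiment), FWR2 (-0.734, smaller), CDR3 (0.238, smaller) and FWR replacements (0.0724 distinct sequences, 0.280 larger) at 72 h, for CDR1 and CDR2 minus CDR3 at 48 h (0.200, smaller), for CDR2 from 48 h to 72 h in treated mice (-0.924, distinct sequences) and for FWR4 from 0 h to 72 h (-0.00204 distinct sequences, -0.650 smaller). Of the other alternative values for single regions, measures and positions, 521 kept direction and side of the threshold, 85 no longer passed it and 4 newly passed it. Of those 85, 37 came from the smaller experiment alone and 18 from distinct sequences. Leaving out 1 mouse at a time, N minus C ranged from 1.14 to 1.398 in the FWRs and from 2.93 to 3.81 in the CDRs, and day 10 treated minus untreated from -1.64 to -0.377 and from -5.45 to -2.29. Without the replicate block, that is unpaired, N minus C was 1.25 and 3.34 (p = 0.00117 and 0.00233, exact permutation test). The pairing changed neither of these 2 calls, and the other measures were not run unpaired.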
